A study of Mus musculus with 2 samples.

Results

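Transcripts that mark lymphocyte activation and retention in tissue were followed through the lymphoid cells of nephritic mouse kidneys. They were *Cd69*, *Cd44*, *Itgae*, *Itga1*, *Zfp683*, *Rgs1*, *Rgs2*, *Bhlhe40*, and *Cd160*, chosen by name as 9 of the 20299 genes in the count matrix, and all 9 were present there. Their unique molecular identifiers (UMIs, each standing for 1 captured transcript) were summed over the cells of each cluster and library. The 8 clusters named as T, NKT, NK, ILC2, or γδ T cells held 3838 of the 7314 cells, 3053 in the WT library and 785 in the *Vsir*-/- library. The term lymphoid clusters below stands for these 8 only, so B cells, though lymphocytes, are counted among the other clusters. *Vsir* encodes VISTA, an inhibitory receptor and ligand of myeloid cells and T cells.

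Both libraries came from kidneys of 8-week-old C57BL/6 mice in the nephrotoxic serum nephritis (NTN) model, in which antibodies against the glomerulus start the injury. According to the labels, mice were immunized with 200 μg of sheep IgG and given 2 μl of nephrotoxic serum per g of body weight 4 days later, although the published methods state another serum dose. The 1 WT and the 1 *Vsir*-/- library differed in more than genotype by their labels, since the WT cells were sorted as CD45+ and the *Vsir*-/- library was described as holding all kinds of kidney cells, whereas the published methods describe a CD45+ sort without exception. Both arms received the serum, and the number of mice behind each library is not given in the sources used here. With 1 library per genotype there was no replicate, so no p-value was computed, all intervals are 95% intervals that cover counting error only, and every difference is one between these 2 libraries.

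Lymphocytes pass through tissue unless they are held there, and the 9 genes act at different steps of that decision. CD69, an early activation antigen, pulls the egress receptor S1PR1 off the cell surface. CD44 is an adhesion receptor for hyaluronan that stays high on antigen-experienced cells. *Itgae* encodes CD103, which with the integrin β7 chain binds E-cadherin on epithelium, and *Itga1* encodes CD49a, which with the β1 chain binds collagen. *Zfp683* encodes the transcription factor Hobit and *Bhlhe40* another transcription factor, both linked to resident memory T cells. *Rgs1* and *Rgs2* encode regulators that shorten G protein signaling, including that of chemokine receptors. CD160 is a surface receptor of NK cells and cytotoxic T cells.

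The WT library held 32799550 UMIs in 5470 cells and the *Vsir*-/- library 18601189 UMIs in 1844 cells, with medians of 4726.5 and 6673 UMIs per cell. *Vsir* itself had 4278 UMIs in WT cells and 8 in *Vsir*-/- cells, and 5 cell barcodes occurred in both libraries. The clusters compared held from 46 to 895 WT cells and from 19 to 349 *Vsir*-/- cells, and the NKT cluster had 94 WT cells and 0 *Vsir*-/- cells, so it entered no comparison. Transcripts of kidney tubule cells, counted over 14 genes, summed to between 0.673 and 4.34 CPM (the UMIs of a gene scaled to a common total of UMIs of the same cells) in the 8 WT clusters. In the 7 *Vsir*-/- clusters they summed to between 1680 and 13230 CPM with 13 or 14 of the genes present. Their part in the differences below was not tested.

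The cluster names were checked against defining markers. The EM-like (effector memory-like) CD4+ cluster held cells of both coreceptor lineages: in WT, 92 cells had *Cd4* UMIs only, 93 had *Cd8a* or *Cd8b1* UMIs only, 10 had both, and 294 had neither. Its *Vsir*-/- cells split into 76, 40, 3, and 125. *Cd8a* and *Cd8b1* together reached 282 CPM there in WT and 332 CPM in *Vsir*-/-, above *Cd4* with 65.6 and 88.8 CPM. The name EM-like CD4+ T cells below therefore stands for all cells of this cluster, of mixed lineage, and not for cells shown to be CD4+. In the non-EM-like CD4+ cluster every WT cell had a transcript of the T cell receptor or CD3 genes, but 233 of the 349 *Vsir*-/- cells had none, and in those 233 the tubule genes summed to 15810 CPM. That cluster is therefore described below with and without these cells. In the EM-like CD8+ cluster, 102 WT cells had *Cd8* UMIs only, 3 had *Cd4* only, 2 had both, and 90 had neither. Of its *Vsir*-/- cells, 15 had *Cd8* only, 6 had *Cd4* only, and 7 had neither. The 3 γδ T cell receptor genes summed there to 431 CPM in WT and 313 CPM in *Vsir*-/-. NK markers summed to 5277 and 3174 CPM, beside 6466 CPM in the WT NK cluster. The WT NKT cluster carried B cell markers at 2367 CPM beside NK markers at 3508 CPM and T cell markers at 1600 CPM. The ILC2 cluster expressed its 4 markers at 3170 CPM in WT and 1850 CPM in *Vsir*-/-, but 75.9% and 89.5% of its cells also had a T cell transcript. In the NK cluster 85.0% of WT and 76.1% of *Vsir*-/- cells had a T cell transcript. There T cell markers summed to 1120 CPM in WT and 481 CPM in *Vsir*-/-, and NK markers to 6466 and 4727 CPM.

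**Figure D1:**
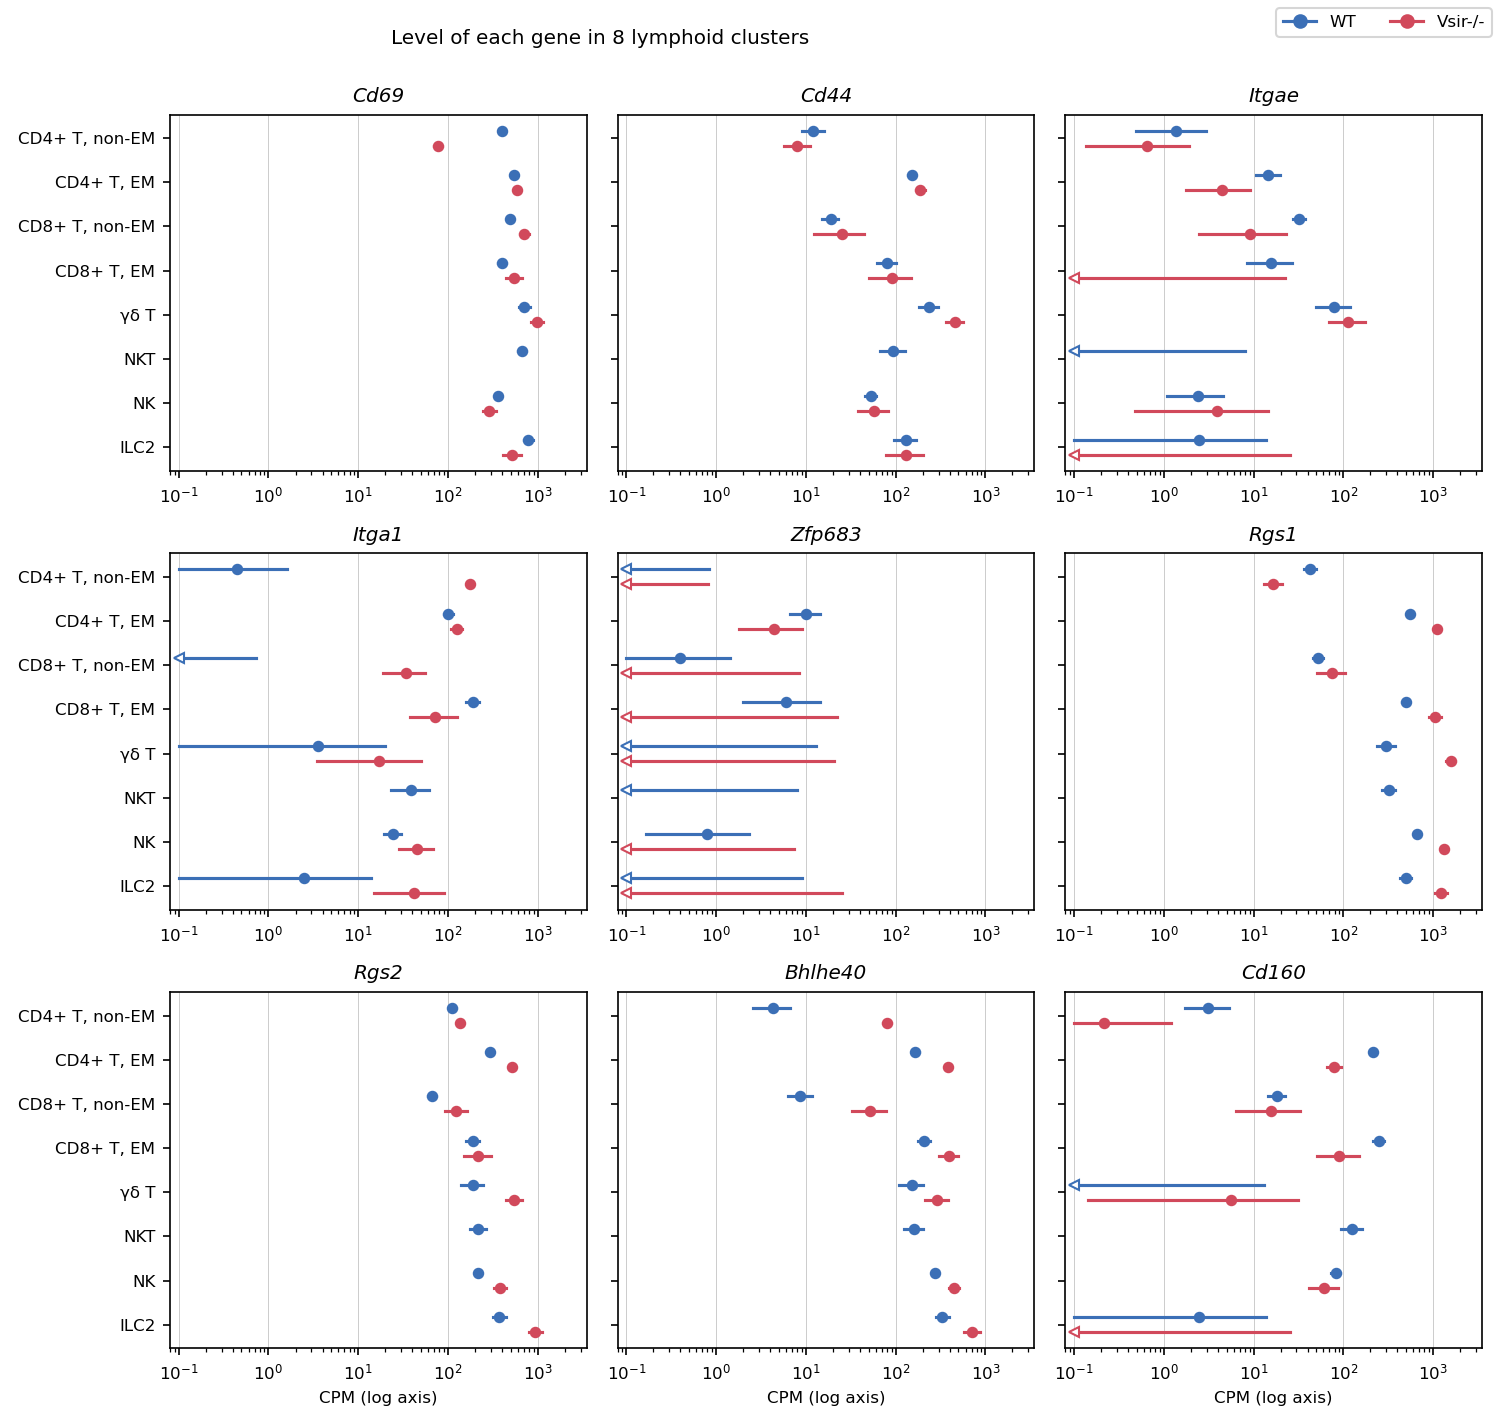
Level of each of the 9 genes in the 8 lymphoid clusters, in CPM on a log axis, for the WT (blue) and *Vsir*-/- (red) library, 1 library each. Points are CPM of summed UMIs and lines exact Poisson 95% intervals, open triangles mark clusters with 0 UMIs drawn at the left edge, and the NKT cluster has no *Vsir*-/- cells. *Rgs1*, *Rgs2*, and *Bhlhe40* lie to the right in *Vsir*-/- for most clusters, and *Cd160* lies to the left in both EM-like T cell clusters.

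*Where the genes were expressed.* In WT cells, *Cd69* was present in all 8 clusters within a narrow range. It was highest in ILC2 (788 CPM, 704 to 880), γδ T (709 CPM, 614 to 815), and NKT cells (668 CPM, 595 to 747), whose neighbours in this order did not differ beyond counting error. The EM-like CD4+ cluster followed with 545 CPM and the non-EM-like CD8+ cluster with 496 CPM. Below them came the non-EM-like CD4+ cluster with 403 CPM, the EM-like CD8+ cluster with 401 CPM, and NK cells with 363 CPM. Neighbours among these last 3 clusters did not differ beyond counting error. In WT, *Cd69* was thus higher in the EM-like than the non-EM-like CD4+ cluster and lower in the EM-like than the non-EM-like CD8+ cluster.

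*Cd44*, *Rgs1*, and *Bhlhe40* were higher in both EM-like clusters in the WT library, as a description, since the clusters were drawn from the same cells. *Cd44* had 151 CPM in the EM-like and 12.1 CPM in the other CD4+ cluster, and 80.2 against 18.8 CPM in the CD8+ pair, with the highest level in γδ T cells (235 CPM, 182 to 299). *Rgs1* had 556 against 42.4 CPM in the CD4+ pair and 492 against 52.2 CPM in the CD8+ pair, and NK cells were highest with 664 CPM (638 to 691). *Bhlhe40* had 166 against 4.26 CPM and 207 against 8.69 CPM, and ILC2 were highest with 332 CPM (278 to 393), followed by NK cells with 273 CPM (257 to 290). *Rgs2* was graded rather than divided, from 66.6 CPM in the non-EM-like CD8+ cluster to 374 CPM in ILC2.

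The integrin and residency genes were found in fewer clusters. *Itgae* was highest in WT γδ T cells (78.4 CPM, 49.1 to 119, from 22 UMIs in 46 cells). Non-EM-like CD8+ T cells came next with 32.4 CPM (27.6 to 37.8), above the EM-like clusters with 15.8 (CD8+) and 14.6 CPM (CD4+), which did not differ from each other. *Itga1* showed the opposite arrangement among WT CD8+ T cells: it had 188 CPM (160 to 220) in the EM-like cluster and 0 UMIs in 659 non-EM-like cells, which allows up to 0.593 CPM. *Zfp683*, with 46 UMIs in the whole WT library, was sparse, with 28 UMIs in EM-like CD4+ (9.99 CPM), 5 in EM-like CD8+, 3 in NK, and 2 in the non-EM-like CD8+ cluster, and it was not detected in the other 4 WT clusters. *Cd160* reached 247 CPM in EM-like CD8+, 214 CPM in EM-like CD4+, 124 CPM in NKT, and 82.2 CPM in NK cells, the first pair not differing beyond counting error. The WT NKT cluster otherwise stood between the other lymphocytes, with 93.2 CPM of *Cd44*, 39.0 of *Itga1*, 321 of *Rgs1*, 217 of *Rgs2*, and 158 of *Bhlhe40*.

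In the WT library the lymphoid clusters held most of the transcripts of each gene except *Rgs2* and *Cd44*. In WT they carried 89.2% of the *Itgae*, 79.7% of the *Cd160*, 72.4% of the *Itga1*, 68.0% of the *Rgs1*, 61.0% of the *Bhlhe40*, and 59.0% of the *Cd69* UMIs of the library. They carried 33.3% of *Rgs2* and 17.3% of *Cd44*, both of which were also found in macrophages and neutrophils, with *Cd44* at 728 CPM in WT neutrophils. In *Vsir*-/- the lymphoid shares were 82.2% for *Cd160*, 71.5% for *Cd69*, 55.6% for *Itga1*, 54.4% for *Bhlhe40*, and 52.6% for *Rgs1*. They were 37.9% for *Itgae* (36 of 95 UMIs), 30.5% for *Rgs2*, and 18.8% for *Cd44*. B cells, outside these clusters, held 3345 of the 14151 *Cd69* UMIs of the WT library.

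For the sparse genes, clusters that should lack them gave the background. WT B cells had 0 UMIs of *Itgae* and *Zfp683* in 969 cells (up to 0.861 CPM), 4 of *Cd160*, and 6 of *Itga1*, and WT neutrophils had 8, 1, 18, and 6 UMIs of *Itgae*, *Zfp683*, *Cd160*, and *Itga1*. In the *Vsir*-/- library *Zfp683* and *Cd160* had 0 UMIs in both B cells and neutrophils, which allows up to 5.72 and 3.86 CPM. The 79.2 CPM of *Cd160* in *Vsir*-/- EM-like CD4+ T cells was above both limits. The 4.44 CPM of *Zfp683* in those T cells was between the limits, so these clusters cannot place it above background. *Itgae* had 2 UMIs in *Vsir*-/- B cells and 2 in neutrophils, which was 3.81 and 2.57 CPM. Those levels were near the 4.44 CPM of *Itgae* in *Vsir*-/- EM-like CD4+ T cells. The background did not hold for *Itga1*, at 43.8 CPM in *Vsir*-/- B cells against 1.72 CPM in WT B cells. *Vsir*-/- *Itga1* levels of that size are thus not read as expression by the cluster.

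*Comparison of the libraries.* The comparison asks how these genes differ between kidney lymphocytes of nephritic mice with and without VISTA. Of the 63 pairs of a gene with 1 of the 7 clusters found in both libraries, 47 had at least 20 UMIs and were compared as a log2 ratio of CPM, *Vsir*-/- over WT. Of these, 11 were at least 2-fold higher and 8 at least 2-fold lower in the *Vsir*-/- library. Over all genes compared, between 5.98% and 47.8% were at least 2-fold higher and between 5.41% and 12.3% at least 2-fold lower, depending on the cluster, and 4 of the 19 pairs lay in the non-EM-like CD4+ cluster, which had the 47.8%. *Rgs1* and *Bhlhe40* made up 8 of the 11 higher pairs, with 4 each. *Cd160* and *Itgae* made up 4 of the 8 lower pairs, with 2 each.

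**Figure D2:**
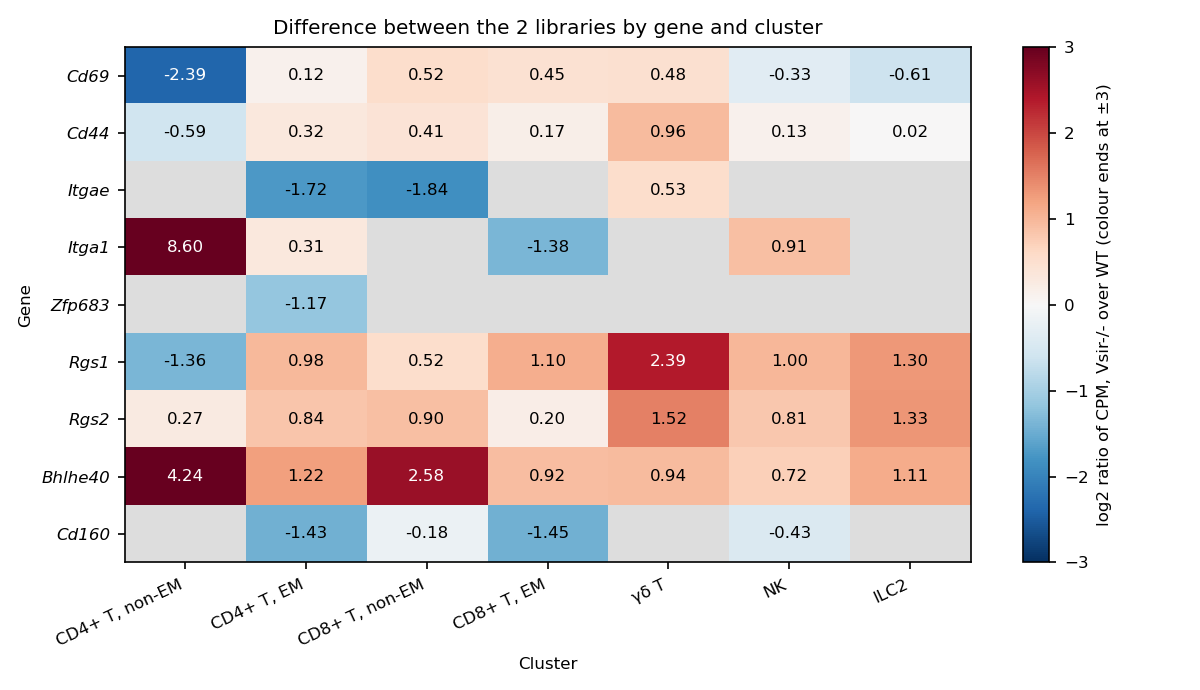
Log2 ratio of CPM, *Vsir*-/- over WT, for the 9 genes (rows) in the 7 clusters with cells of both libraries (columns), with gray for pairs under 20 UMIs. *Bhlhe40* is above 0 in all 7 clusters, as is *Rgs2* unless ratios are centred on the median of all genes (-0.65 in the non-EM-like CD4+ cluster), *Cd160* is -1.43 and -1.45 in the EM-like columns, and the non-EM-like CD4+ column holds both extremes (8.60 for *Itga1* and -2.39 for *Cd69*).

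*Bhlhe40*, which in T cells is known to favor IFN-γ and GM-CSF production, was higher in *Vsir*-/- in 7 of 7 clusters, with each interval above 0. In the EM-like CD4+ cluster, which was mixed in lineage, it went from 166 CPM (151 to 182) in WT to 386 CPM (356 to 418) in *Vsir*-/-. The log2 ratio was 1.22 (1.04 to 1.40). This placed it at the 91.0th percentile of the 9751 genes compared in that cluster, of which 10.4% were at least 2-fold higher and 5.41% at least 2-fold lower. In non-EM-like CD8+ T cells it went from 8.69 to 52.0 CPM, a log2 ratio of 2.58 (1.79 to 3.34), where 11.1% of genes were at least 2-fold higher and 9.66% lower. The 23 *Vsir*-/- UMIs lay in 8 of 50 cells, with 26.1% in a single cell, and among cells with at most 5% mitochondrial UMIs the log2 ratio was 1.56. The remaining log2 ratios were 0.92 in EM-like CD8+ T cells, 0.94 in γδ T cells, 0.72 in NK cells, and 1.11 in ILC2, with the non-EM-like CD4+ cluster taken up below. Thinned to 1000 UMIs per cell, *Bhlhe40* was detected in 13.4% (10.4 to 16.7) of WT and 27.8% (22.2 to 33.9) of *Vsir*-/- EM-like CD4+ T cells. A thinned share also rises with the level per cell, so it cannot tell more expressing cells from more transcript per cell. Without thinning the shares were 44.2% and 70.1%. In B cells, by comparison, it was found in 4.12% and 2.78% of thinned cells.

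*Rgs1* was higher in the *Vsir*-/- library in 6 of 7 clusters, and the interval lay above 0 in 5 of them. The largest difference was in γδ T cells, from 299 CPM (239 to 371) to 1568 CPM (1389 to 1764), a log2 ratio of 2.39 (2.03 to 2.76) that stood at the 98.6th percentile of 3379 genes. These γδ T cells numbered 46 in WT and 28 in *Vsir*-/-, and 5.98% of their genes were at least 2-fold higher and 6.60% lower. The 3 γδ T cell receptor genes that mark this cluster summed to 1329 CPM in WT and 3097 CPM in *Vsir*-/-, and the part of that shift in this and the other γδ T cell differences was not tested. EM-like CD8+ T cells went from 492 to 1054 CPM, a log2 ratio of 1.10 (0.84 to 1.36), in a cluster where 6.03% of genes were at least 2-fold higher and 9.98% lower. Of the 175 *Vsir*-/- UMIs there, 78 lay in 6 cells with *Cd4* UMIs only, and among cells with *Cd8* UMIs only the log2 ratio was 0.75 (0.31 to 1.16). NK cells went from 664 to 1330 CPM, a log2 ratio of 1.0 (0.88 to 1.12), with 9.86% of genes higher and 7.01% lower by 2-fold. A single NK cell held 12.5% of the *Vsir*-/- UMIs, and without the highest cell of each library the log2 ratio was 0.87. ILC2 went from 496 to 1217 CPM, a log2 ratio of 1.30 (1.0 to 1.60), with 11.4% of genes higher and 12.3% lower, on 19 *Vsir*-/- cells. EM-like CD4+ T cells went from 556 CPM (529 to 585) to 1096 CPM (1045 to 1149), a log2 ratio of 0.98 (0.88 to 1.08). The share of thinned EM-like CD4+ cells with *Rgs1* was 35.1% (30.8 to 39.5) in WT and 51.5% (45.0 to 57.9) in *Vsir*-/-. In non-EM-like CD8+ T cells the interval of the *Rgs1* log2 ratio reached from -0.05 to 1.04.

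*Rgs2* was also higher in all 7 clusters, except that in the non-EM-like CD4+ cluster its log2 ratio of 0.27 became -0.65 when centred on the median of all genes. It was at least 2-fold higher in γδ T cells (189 to 542 CPM, log2 ratio 1.52, 1.02 to 2.03) and ILC2 (374 to 942 CPM, log2 ratio 1.33, 0.99 to 1.68). EM-like CD4+ T cells went from 291 to 519 CPM (0.84, 0.69 to 0.98), non-EM-like CD8+ T cells from 66.6 to 124 CPM (0.90, 0.46 to 1.32), and NK cells from 218 to 381 CPM (0.81, 0.57 to 1.03). EM-like CD8+ T cells had 188 and 217 CPM, with an interval of the log2 ratio from -0.36 to 0.73. Among the cells of that cluster with *Cd8* UMIs only, *Rgs2* went from 114 to 247 CPM (1.11, 0.31 to 1.87), on 53 and 21 UMIs. Among those with neither coreceptor it had 316 and 251 CPM (-0.33, -1.58 to 0.70). In ILC2, without thinning, an *Rgs2* UMI was found in 18 of 19 cells of the *Vsir*-/- and 42 of 79 of the WT library. Median depth of these cells differed as well, at 5799 UMIs in *Vsir*-/- and 4695 in WT.

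A list of 19 genes induced by tissue dissociation, among them *Fos*, *Jun*, *Egr1*, and heat shock genes, was also higher in sum in the *Vsir*-/- lymphoid clusters. Its summed level went from 7757 to 16310 CPM in EM-like CD4+ T cells, from 8883 to 18844 CPM in γδ T cells, from 5193 to 10221 CPM in the non-EM-like CD8+ cluster, and from 13685 to 20813 CPM in ILC2. In NK cells it went from 7790 to 11539 CPM and in EM-like CD8+ T cells from 7963 to 12088 CPM, with all 19 genes detected in each of these clusters in both libraries. The list was also higher in *Vsir*-/- other R2 macrophages (12377 to 16187 CPM), R1 macrophages (13400 to 16289 CPM), and proliferating cells (6097 to 8378 CPM). Smaller rises were seen in M2-like R2 macrophages (14283 to 15470 CPM) and plasmacytoid dendritic cells (13064 to 14402 CPM). In B cells and neutrophils it was lower in *Vsir*-/-, at 8641 against 10635 CPM and 9015 against 13625 CPM. Basophils, with 2 *Vsir*-/- cells, had 23096 against 29608 CPM. In those B cells the log2 ratio was 1.66 for *Rgs1*, 0.47 for *Rgs2*, and 0.28 (-0.35 to 0.85) for *Bhlhe40*, and in the neutrophils 0.47 (-0.02 to 0.95), 0.36, and -0.43 (-1.02 to 0.12). The part of dissociation in the *Rgs1*, *Rgs2*, and *Bhlhe40* differences was not tested.

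*Cd69*, the member most closely tied to early activation, differed little in the EM-like CD4+ cluster as a whole. There it had 545 and 593 CPM, a log2 ratio of 0.12 (0.00 to 0.24). It was higher among the *Cd4*-only cells of that cluster (0.62, 0.38 to 0.85). The intervals included 0 among *Cd8*-only cells (-0.35 to 0.18) and cells with neither (-0.22 to 0.13). *Cd69* was also higher in *Vsir*-/- non-EM-like CD8+ T cells (496 to 710 CPM, 0.52, 0.34 to 0.69) and γδ T cells (709 to 987 CPM, 0.48, 0.18 to 0.78). EM-like CD8+ T cells had 401 and 548 CPM (0.45, 0.10 to 0.79), but 1 of the 28 *Vsir*-/- cells held 26.4% of the UMIs, and without the highest cells the log2 ratio was 0.09. NK cells had 363 and 288 CPM (-0.33, -0.59 to -0.09), and ILC2 had 788 and 516 CPM (-0.61, -0.99 to -0.24), which became -1.06 without the highest cells and 0.13 after subtracting the profile of cells without T cell transcripts.

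Among the other clusters, B cells included, *Cd69* was lower in the *Vsir*-/- library in 7 of 8 with an interval below 0. The exception was basophils with 11 *Vsir*-/- UMIs (-0.80, -1.82 to 0.06). B cells had 961 CPM in WT and 299 CPM in *Vsir*-/- (-1.68, -1.92 to -1.45), and the log2 ratio was -1.61 in neutrophils, -1.90 in R1 macrophages, -1.78 in M2-like R2 macrophages, and -2.12 in other R2 macrophages. In those same myeloid clusters the share of cells with a T cell transcript was also lower in *Vsir*-/-, 5.06% against 26.9% in neutrophils and 5.49% against 31.9% in R1 macrophages. The part of free T cell RNA in the myeloid *Cd69* difference was not tested.

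**Figure D3:**
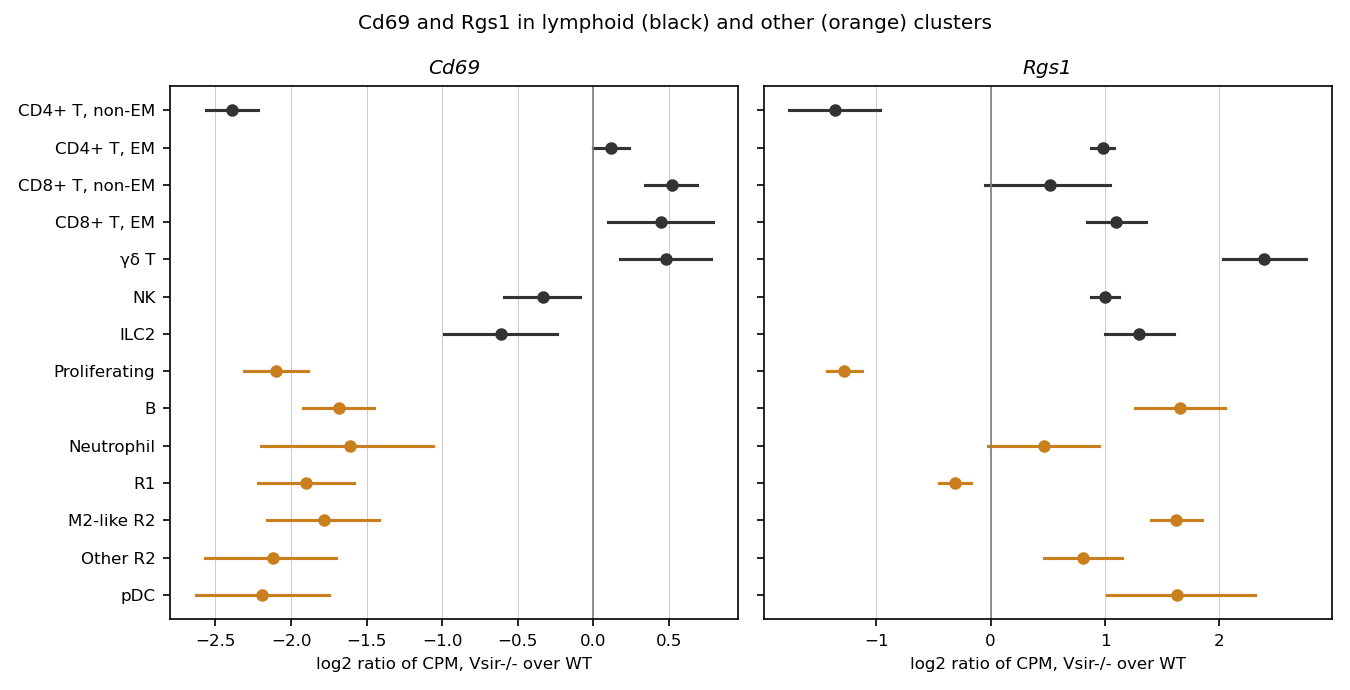
Log2 ratio of CPM, *Vsir*-/- over WT, of *Cd69* (left) and *Rgs1* (right) in the 7 lymphoid clusters (black) and 7 other clusters (orange), with exact 95% intervals for counting error. *Cd69* lies between -1.61 and -2.19 in the 7 other clusters, and *Rgs1* is above 0 in 6 lymphoid clusters and below 0 in non-EM-like CD4+, proliferating, and R1 cells.

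*Cd44* was compared in 7 clusters, and none was past 2-fold as deposited. The largest log2 ratio was 0.96 (0.47 to 1.45) in γδ T cells, from 235 to 457 CPM. EM-like CD4+ T cells had 151 and 188 CPM (0.32, 0.10 to 0.54). The intervals in the other 5 clusters included 0, and that of ILC2, with 129 and 131 CPM, ran from -0.82 to 0.80.

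*Cd160* was lower in both *Vsir*-/- EM-like T cell clusters. It went from 214 CPM (197 to 232) to 79.2 CPM (66.0 to 94.4) in the EM-like CD4+ cluster as a whole. The log2 ratio was -1.43 (-1.72 to -1.15), at the 3.15th percentile of genes. The coreceptor subsets of that cluster are given below. In EM-like CD8+ T cells it went from 247 to 90.3 CPM (-1.45, -2.31 to -0.69), the latter on 15 UMIs. NK cells had 82.2 and 61.2 CPM, with an interval of the log2 ratio from -1.01 to 0.11, and non-EM-like CD8+ T cells had 18.0 and 15.8 CPM. Of thinned EM-like CD4+ cells, 15.9% (12.7 to 19.5) in WT and 7.05% (4.16 to 11.1) in *Vsir*-/- had a *Cd160* UMI. Markers of NK cells were lower in the same clusters, with 4 genes summing to 2465 and 1542 CPM in the CD4+ and to 5277 and 3174 CPM in the CD8+ cluster. Their part in the *Cd160* difference was not tested. Outside the lymphoid clusters, *Cd160* was also lower in *Vsir*-/- proliferating cells (129 and 8.55 CPM, -3.91, -4.44 to -3.42). It was lower as well in M2-like R2 macrophages (32 and 1 UMIs, -3.61), and neutrophils had 18 and 0 UMIs. Of the proliferating cells, 96.6% in WT and 34.9% in *Vsir*-/- had a T cell transcript.

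*Itgae* was lower in 2 of the 3 clusters with enough UMIs. The non-EM-like CD8+ cluster held 164 UMIs over 659 WT cells (32.4 CPM) and 4 over 50 *Vsir*-/- cells (9.05 CPM, 2.47 to 23.2), a log2 ratio of -1.84 (-3.73 to -0.46). EM-like CD4+ T cells had 41 and 7 UMIs (14.6 and 4.44 CPM), a log2 ratio of -1.72 (-3.12 to -0.55). The 4.44 CPM was near the 3.81 CPM of *Vsir*-/- B cells. The shares of these cells with an *Itgae* UMI had overlapping intervals, 4.91% (3.17 to 7.21) and 2.46% (0.908 to 5.28). Thinned, they were 0.835% and 0.830%. By coreceptor, WT and *Vsir*-/- UMIs were 18 and 1 in *Cd8*-only, 4 and 3 in *Cd4*-only, and 12 and 3 in cells with neither. EM-like CD8+ T cells had 13 and 0 UMIs, where 0 UMIs allow up to 18.1 CPM, so no difference was detectable. The γδ T cells, which had the highest levels, went the other way without leaving counting error (78.4 and 113 CPM, 0.53, -0.42 to 1.47). *Zfp683* was compared in EM-like CD4+ T cells only, with 28 and 7 UMIs and a log2 ratio of -1.17 (-2.61 to 0.06), an interval that includes 0.

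*Itga1* differed in direction between clusters. EM-like CD8+ T cells went from 188 CPM (155 UMIs in 197 cells) to 72.3 CPM (12 UMIs in 28 cells), a log2 ratio of -1.38 (-2.36 to -0.54). Among the cells of that cluster with *Cd8* UMIs only, 102 WT and 15 *Vsir*-/-, the log2 ratio was -0.75 (-1.86 to 0.19). EM-like CD4+ T cells had 101 and 126 CPM (0.31, 0.04 to 0.58) and NK cells 24.2 and 45.4 CPM (0.91, 0.18 to 1.58), beside 43.8 CPM in the B cells of the *Vsir*-/- library. The log2 ratio in NK cells became -0.65 after subtracting the profile of cells without T cell transcripts. Non-EM-like CD8+ T cells had 0 WT and 15 *Vsir*-/- UMIs, 57.2-fold higher against a floor of 3 WT counts. The interval of the log2 ratio had a lower limit of 5.36. Those 15 UMIs lay in 7 cells, however, and the level, 33.9 CPM, was below that of *Vsir*-/- B cells.

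*The coreceptor lineages of the EM-like CD4+ cluster.* Split by coreceptor transcripts, *Cd160* and *Itga1* were higher in the cells of this cluster without *Cd4*. In WT, *Cd160* had 21.8 CPM (11.6 to 37.3) in cells with *Cd4* only and 288 CPM (249 to 332) in cells with *Cd8* only, and *Itga1* had 23.5 and 127 CPM. In *Vsir*-/-, *Cd160* had 17.3 and 152 CPM and *Itga1* 44.2 and 179 CPM. The 44.2 CPM, near the 43.8 CPM of *Vsir*-/- B cells, is not read as expression by the *Cd4*-only cells. *Cd44* was arranged the other way, with 166 CPM in *Cd4*-only and 107 CPM in *Cd8*-only WT cells and 255 and 100 CPM in *Vsir*-/-.

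The difference in *Cd160* between the libraries was not detectable among *Cd4*-only cells (13 and 9 UMIs, log2 ratio -0.34, -1.74 to 1.0), was -0.93 (-1.43 to -0.45) among *Cd8*-only cells, and was -1.49 (-1.87 to -1.12) among cells with neither, and the first of these intervals overlaps both others. *Rgs1* was higher in every subset, at 429 and 1221 CPM among *Cd4*-only cells (1.51, 1.30 to 1.72), 293 and 686 CPM among *Cd8*-only cells (1.23, 0.94 to 1.52), and 732 and 1167 CPM among cells with neither (0.67, 0.54 to 0.80). *Bhlhe40* was higher in each as well, from 158 to 520 CPM among *Cd4*-only cells (1.72, 1.38 to 2.08) and from 131 to 234 CPM among *Cd8*-only cells (0.84, 0.36 to 1.31). *Cd69* was higher only among *Cd4*-only cells (436 to 668 CPM, 0.62, 0.38 to 0.85), its interval among *Cd8*-only cells running from -0.35 to 0.18, and these 2 intervals do not overlap. No test of the difference between the subsets was made.

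**Figure D4:**
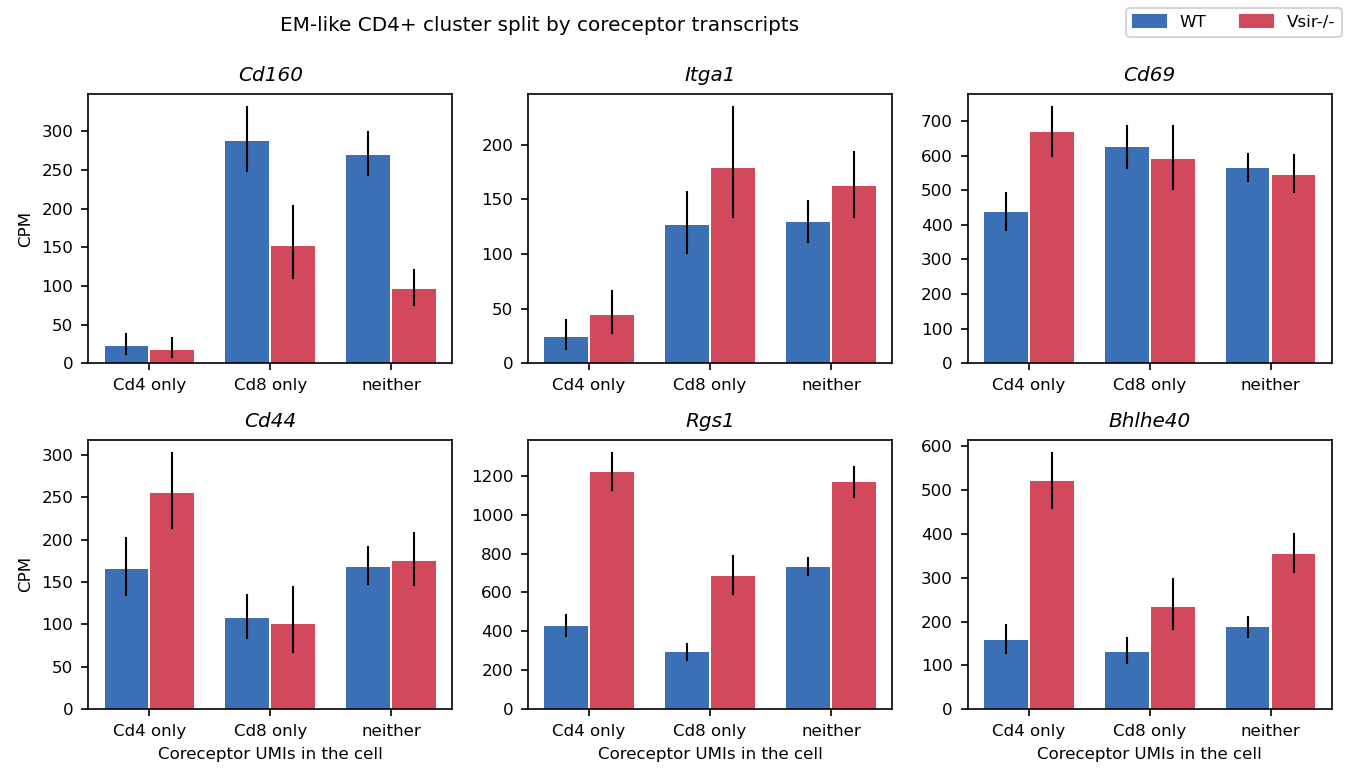
CPM of 6 genes in the EM-like CD4+ cluster, split into cells with *Cd4* UMIs only, with *Cd8a* or *Cd8b1* UMIs only, and with neither, for the WT (blue, 92, 93, and 294 cells) and *Vsir*-/- (red, 76, 40, and 125 cells) library. Bars are CPM of summed UMIs and lines exact Poisson 95% intervals. *Cd160* is near 20 CPM in *Cd4*-only cells of both libraries (21.8 and 17.3) and above 90 elsewhere, and *Rgs1* and *Bhlhe40* are higher in *Vsir*-/- in every subset shown.

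*The non-EM-like CD4+ cluster.* As deposited, this cluster gave the most extreme values: *Itga1* went from 0.449 to 174 CPM (log2 ratio 8.60, 6.74 to 11.65), *Bhlhe40* from 4.26 to 80.5 CPM (4.24, 3.57 to 4.99), *Cd69* from 403 to 77.0 CPM (-2.39, -2.56 to -2.22), and *Rgs1* from 42.4 to 16.5 CPM (-1.36, -1.76 to -0.97). The background was as extreme, since 47.8% of its 12583 genes were at least 2-fold higher and 10.7% at least 2-fold lower, and the median log2 ratio of all of them was 0.91 against between -0.11 and 0.07 in the other 6 clusters. The 233 *Vsir*-/- cells without a T cell transcript carried *Itga1* at 186 CPM and *Bhlhe40* at 81.1 CPM, and *Cd69* at 2.37 CPM and *Rgs1* at 2.66 CPM.

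Restricted to the 116 *Vsir*-/- cells with a T cell transcript, *Cd69* had 284 CPM (log2 ratio -0.51, -0.68 to -0.34) and *Rgs1* 55.0 CPM (0.37, -0.05 to 0.78). Among the 91 that also had *Ptprc*, the gene of CD45, *Cd69* had 410 CPM against 405 CPM in WT (0.02, -0.15 to 0.19), *Rgs1* 76.4 against 43.3 CPM (0.82, 0.38 to 1.24), and *Rgs2* 245 against 113 CPM (1.12, 0.88 to 1.36). The lower *Cd69* and *Rgs1* levels of the whole cluster were not seen among cells with both transcripts. *Cd44*, at 8.05 against 12.1 CPM in the whole cluster (-0.59, -1.23 to 0.04), was past 2-fold higher in both subsets, with 25.4 CPM among cells with a T cell transcript (1.07, 0.38 to 1.73) and 34.0 CPM among those with *Ptprc* as well (1.47, 0.75 to 2.16). *Bhlhe40* stayed higher among cells with both transcripts (52.1 against 4.16 CPM, 3.65, 2.82 to 4.53), as did *Itga1* (131 against 0.463 CPM), both of which the cells without T cell transcripts carried at 81.1 and 186 CPM. The 108 *Itga1* UMIs lay in 11 of the 91 cells, with 26.9% in a single cell.

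*Genes of the same program.* Lists of further genes were read in the same way. Of 18 genes raised in circulating lymphocytes, 17 could be compared in EM-like CD4+ T cells, where 0 were at least 2-fold higher and 8 at least 2-fold lower in *Vsir*-/-, with a median log2 ratio of -0.93 against 0.00 for all genes. Over all genes of that cluster, 10.4% were higher and 5.41% lower by 2-fold. These 8 included *Ccr7*, which guides cells to lymph nodes (40.7 to 3.17 CPM, -3.68), and *Lef1*, a transcription factor of naive and central memory T cells (94.5 to 29.8 CPM, -1.67). *S1pr1*, whose receptor CD69 removes from the surface, had 87.1 and 42.5 CPM (-1.04, -1.45 to -0.64). In the other clusters that list had 0 higher and 8 lower of 18 in NK cells (median -0.53, beside 9.86% and 7.01% of all genes) and 0 and 4 of 9 in γδ T cells (median -0.85, beside 5.98% and 6.60%). It had 0 higher and 0 lower of 15 in the non-EM-like CD8+ cluster (median -0.46, beside 11.1% and 9.66%), 2 and 0 of 16 in the EM-like CD8+ cluster (median -0.34, beside 6.03% and 9.98%), and 0 and 1 of 5 in ILC2 (median -0.24, beside 11.4% and 12.3%).

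Of 18 activation genes, 7 were at least 2-fold higher and 0 lower in EM-like CD4+ T cells, with a median log2 ratio of 0.63, beside 10.4% and 5.41% of all genes. They included *Tnfrsf9*, the gene of the costimulatory receptor 4-1BB (8.92 to 39.3 CPM, 2.14), and *Il2*, the T cell growth factor (14.3 to 46.3 CPM, 1.70). In EM-like CD8+ T cells 2 of 7 were higher and 1 lower (6.03% and 9.98% of all genes), and in NK cells 3 of 13 were higher and 2 lower (9.86% and 7.01%). The non-EM-like CD8+ cluster had 1 of 12 higher and 0 lower (11.1% and 9.66%), and γδ T cells (5.98% and 6.60%) and ILC2 (11.4% and 12.3%) each had 2 higher and 1 lower, of 7 and 8 compared. Of 28 residency genes other than the members, 27 could be compared in EM-like CD4+ T cells, with 2 higher, 0 lower, and a median of 0.11, beside the same 10.4% and 5.41%. The 2 were *Ifng* (175 to 444 CPM, 1.35) and *Nr4a1* (54.6 to 126 CPM, 1.21), while *Cxcr6*, a chemokine receptor of resident T cells, had 592 and 564 CPM (-0.07, -0.19 to 0.05) and *Xcl1* had 1452 and 771 CPM (-0.91, -1.01 to -0.82). *Nr4a1* is also on the list of dissociation genes, as is *Egr1* of the activation list, so these lists are not separate. In EM-like CD4+ T cells, 12 of the 19 dissociation genes were at least 2-fold higher and 0 lower, with a median of 1.34. The part of dissociation in the activation list was not tested. In non-EM-like CD8+ T cells 9 of 20 residency genes were higher and 2 lower (11.1% and 9.66% of all genes), and in EM-like CD8+ T cells 6 of 18 were higher and 5 lower (6.03% and 9.98%). Of those compared, 3 of 10 were higher and 0 lower in γδ T cells (5.98% and 6.60%), 2 of 12 and 0 in ILC2 (11.4% and 12.3%), and 2 of 21 and 4 in NK cells (9.86% and 7.01%). In the mixed non-EM-like CD4+ cluster the 3 lists had 1 higher and 11 lower of 14 (circulating), 1 and 11 of 16 (activation), and 8 and 8 of 20 (residency), beside 47.8% higher and 10.7% lower of all genes.

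The β chains of the integrins were read beside the α chains. In EM-like CD4+ T cells *Itgb1*, the β1 partner of *Itga1*, had 375 and 389 CPM (0.05, -0.10 to 0.20), and *Itgb7*, the partner of *Itgae*, had 344 and 307 CPM (-0.16, -0.32 to 0.00). *Cdh1*, the E-cadherin gene of epithelium, had 2.50 and 17.1 CPM (2.78, 1.54 to 4.22) in the same cluster, in which tubule transcripts summed to 3.21 CPM in WT and 3141 CPM in *Vsir*-/-.

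*How the genes varied together.* Over 14 points, each a lymphoid cluster of 1 library with at least 20 cells, the members closest to each other in log2(CPM + 1) were *Rgs1* and *Cd44* (Pearson r = 0.841), *Rgs1* and *Rgs2* (0.834), *Rgs2* and *Bhlhe40* (0.819), and *Rgs1* and *Bhlhe40* (0.815). These points share 2 libraries, so the values are descriptive. Among them is the whole *Vsir*-/- non-EM-like CD4+ cluster, with the 233 of 349 cells that lacked a T cell transcript. That point had the highest *Itga1* level of the *Vsir*-/- library clusters used (174 CPM). Correlations without those cells are not given. By the same measure among other genes, *Id2*, a transcriptional regulator of innate and effector lymphocytes, and *Cyba* were most like *Bhlhe40* (0.960 and 0.945), and *Pglyrp1* and the NK receptor gene *Klra1* most like *Cd160* (0.949 and 0.921). *Dusp5* and *Lmnb1* were most like *Rgs1* (0.943 and 0.941), *Il12rb1* and *Fnbp1* most like *Cd44* (0.947 and 0.941), and *Slc38a1* and *Pstpip1* most like *Cd69* (0.914 and 0.908). *Armc1* and *Cd38* stood closest to *Itga1* (0.899 and 0.890), *Exosc3* and *Camk2g* to *Rgs2* (0.891 and 0.885), *Nfrkb* and *Nufip1* to *Itgae* (0.857 and 0.852), and *Cdca4* and *Rexo4* to the sparse *Zfp683* (0.766 and 0.764).

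Within single cells thinned to 1000 UMIs, *Rgs2* was more frequent among cells with *Rgs1* in the EM-like CD4+ cluster. In EM-like CD4+ T cells of WT, *Rgs2* was found in 28.6% (21.9 to 36.0) of cells with *Rgs1* and 16.4% (12.5 to 21.0) of cells without it, and in *Vsir*-/- in 36.3% (27.8 to 45.4) and 22.2% (15.1 to 30.8), where the intervals overlap. WT NK cells had 24.8% (19.0 to 31.2) and 15.0% (11.5 to 19.0), while WT EM-like CD8+ cells had 16.4% and 15.8% and WT non-EM-like CD8+ cells 5.88% and 5.92%. In the EM-like CD4+ cluster, *Rgs1* in WT was in 36.0% of cells with and 34.5% of cells without *Cd69*. In *Vsir*-/- the shares were 61.2% (50.8 to 70.9) and 44.8% (36.4 to 53.3). *Bhlhe40* was in 26.1% (16.3 to 38.1) of *Ifng*-positive and 11.2% (8.33 to 14.7) of *Ifng*-negative WT cells of the EM-like CD4+ cluster. In its *Vsir*-/- cells the shares were 23.1% (13.5 to 35.2) and 29.5% (22.9 to 36.9). No such difference was seen in WT EM-like CD8+ cells (18.5% and 16.8%) or in NK cells of WT (26.6% and 23.8%) and *Vsir*-/- (29.2% and 41.9%). In WT EM-like CD8+ T cells *Rgs1* was in 51.9% (31.9 to 71.3) of the 27 cells with and 24.6% (18.2 to 31.8) of the 167 cells without *Ifng*, and in the EM-like CD4+ cluster in 33.3% and 35.4% in WT and 53.8% and 50.6% in *Vsir*-/-. *Itga1* was in 19.7% (11.5 to 30.5) of *Cd160*-positive and 9.93% (7.19 to 13.3) of *Cd160*-negative WT EM-like CD4+ cells, intervals that overlap. In that cluster of WT, *Cd160* and *Itga1* were both lower in *Cd4*-only (21.8 and 23.5 CPM) than *Cd8*-only cells (288 and 127 CPM). *Rgs1* and *Rgs2* were both highest in its cells with neither coreceptor (732 and 400 CPM). The part of this mixture of subsets in the co-detection was not tested. The pairs named here are a selection from many that were computed, and the intervals are not adjusted for that number.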

How the data were processed

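Single-cell libraries (10x Chromium 3', version 3.1) were made from digested kidneys (0.2 mg/ml liberase, 37°C, 30 minutes). The authors processed reads with Cell Ranger 3.1.0, kept genes in 5 or more cells and cells with 200 or more UMIs and at most 10% mitochondrial UMIs, and clustered and named the cells with Seurat 3.2.3 in R 4.0.3. The submitters' processing notes name the build mm9, and no coordinates were used. The deposited counts are whole UMIs per gene and cell without normalization, and a deposited percent gives each cell's mitochondrial share. Removal of doublets is not given in the sources used here, and none were removed.

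UMIs were summed per cluster and library, since 1 library per genotype and cells that are not replicates allow no test. CPM were taken over all UMIs of the same cells, with exact Poisson, Clopper-Pearson, and conditional 95% intervals. A gene was compared in a cluster with at least 20 UMIs over both libraries and called past 2-fold at a log2 ratio of 1 with a pseudocount of 0.5 UMIs. A count of 0 was taken to allow 3 counts. Cells were thinned to 1000 UMIs with a fixed seed, which left out 167 WT and 78 *Vsir*-/- cells. The ratio code was tested on simulated data. Python 3.11.15, numpy 2.4.6, scipy 1.17.1, and pandas 2.3.3 were used. The members, gene lists, and comparisons were chosen with earlier results of these data known. Named were all 9 members, the 2 genes most like each by Pearson r among genes with at least 200 UMIs, and the 3 largest and 3 smallest log2 ratios of the lists in EM-like CD4+ T cells, of which 1 is not reported here. *S1pr1*, *Cxcr6*, *Xcl1*, *Ifng*, *Nr4a1*, *Itgb1*, and *Itgb7* were chosen after their values were seen.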

Additional observations from a re-analysis of the deposited data

Results flagged for a closer look

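For 3 genes the libraries differed in opposite directions between clusters, and these differences were not tested. The log2 ratios of *Cd69* in non-EM-like CD8+ (0.52) and non-EM-like CD4+ T cells (-2.39) lay 2.91 apart. Those of *Itga1* in non-EM-like CD4+ (8.60) and EM-like CD8+ T cells (-1.38) lay 9.98 apart. Those of *Rgs1* in γδ T cells (2.39) and non-EM-like CD4+ T cells (-1.36) lay 3.75 apart. Each involves the non-EM-like CD4+ cluster, in which 33.2% of *Vsir*-/- cells had a T cell transcript.

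Clusters outside the comparisons also held levels above those of WT. *Itga1* had log2 ratios of 4.67 in B cells (6 WT and 23 *Vsir*-/- UMIs), 4.44 in R1 macrophages (1 and 50), and 3.18 in neutrophils (6 and 17). The *Vsir*-/- levels there, 43.8, 31.2, and 21.9 CPM, are as above not read as expression by the cluster. In proliferating cells the log2 ratio of *Itga1* was 1.93, where 96.6% of WT and 34.9% of *Vsir*-/- cells had a T cell transcript. *Rgs1* had log2 ratios of 1.66 in B cells, 1.63 in plasmacytoid dendritic cells (pDCs), and 1.62 in M2-like R2 macrophages. *Rgs2* had 1.14 in pDCs and *Bhlhe40* had 1.24 in M2-like R2 macrophages. *Itgae* in pDCs had a log2 ratio of 3.48, from 1 UMI in 21 WT cells to 50 UMIs in 86 *Vsir*-/- cells.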

How the results depend on the processing

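Of the 47 compared pairs, between 45 and 47 kept their direction under 8 of the 9 alternatives, and 41 did when the profile of *Vsir*-/- non-EM-like CD4+ cells without a T cell transcript was subtracted from the *Vsir*-/- clusters, an alternative chosen after seeing the data. That subtraction removed between 10.6% and 46.5% of UMIs and changed the counts of pairs past 2-fold from 11 higher and 8 lower to 20 and 5. In non-EM-like CD4+ T cells, *Rgs1* turned to 0.38 with T cell transcripts only, 0.48 with *Ptprc* only, and 1.03 after subtraction, and *Cd69* turned to 0.17 after subtraction. Below 2-fold, *Cd44* there (-0.58) became 1.08, 1.17, and 1.72 under these 3 alternatives, and subtraction also took *Itga1* in NK cells from 0.93 to -0.65 and *Cd69* in ILC2 from -0.60 to 0.13. The level of *Cd69* in that *Vsir*-/- cluster, 77.0 CPM, was 284 CPM with and 2.37 CPM without a T cell transcript. There the list medians moved with T cell transcripts only from 0.32 to 0.68 (residency), -2.67 to -1.09 (egress), and -2.25 to -0.66 (activation). In the EM-like CD4+ cluster, *Cd160* of 214 CPM in WT was 21.8 in *Cd4*-only and 288 in *Cd8*-only cells, and 79.2 CPM in *Vsir*-/- was 17.3 and 152.

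The difference in the share of EM-like CD4+ cells with *Bhlhe40* went from 14.4 to 25.9 percentage points without thinning, and that of *Cd160* from -8.81 to -14.8 at 2000 UMIs and -21.8 without thinning. In WT EM-like CD4+ cells, *Itga1* with minus without *Cd160* went from 9.81 to 25.2 points without thinning, and *Bhlhe40* with minus without *Rgs1* from 6.92 to 10.7 at 2000 UMIs and 22.8 without thinning. The cause was not tested. No paired analysis was possible because each genotype has 1 library, and no library could be left out. Depth limits *Itgae* and *Zfp683*, with 95 and 8 UMIs in the *Vsir*-/- library, and clusters of 28 or fewer *Vsir*-/- cells.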
